A study of Homo sapiens with 6 samples.

Results

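The long arm of chromosome 17 was examined in 3 deposited lists of transcription factor binding sites from human bronchial epithelial cell lines. Members were all listed peaks on chromosome 17 with a midpoint beyond 25 Mb (hg19), which gave 1515 of the 74158 peaks of the 3 lists. Of these, 44 of 1510 came from the list of KLF5 in Calu-3, 129 of 3262 from KLF5 in 16HBE14o- and 1342 of 69386 from CEBPB in Calu-3. Within the arm, the 3 Mb from 36 to 39 Mb, which surround the gene ERBB2, were set against the rest. Calu-3 is a line from a lung adenocarcinoma and 16HBE14o- an immortalised line of airway epithelium. Both were grown untreated in DMEM with 10% FBS, and binding was measured by ChIP-seq, the sequencing of DNA precipitated with an antibody, in 2 samples per group. For KLF5 in Calu-3, replicate 1 used a rabbit anti-KLF5 and replicate 2 the antibody sc-398470, which also served for both 16HBE14o- samples; sc-7962 served for CEBPB. Differences between the KLF5 lists by cell line and by antibody therefore cannot be told apart.

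KLF5 is a Krüppel-like zinc finger factor that binds GC-rich and CACCC-type sequences in promoters and enhancers of epithelial genes. CEBPB is a basic leucine zipper factor that binds as a dimer and takes part in inflammatory and differentiation programmes of the airway. ERBB2 encodes HER2, a receptor tyrosine kinase that signals as the partner of other receptors of the EGF receptor family, and Calu-3 is known as a line in which ERBB2 is amplified. In RefSeq's order of protein-coding genes (GRCh38.p14), the neighbours on one side are PGAP3, PNMT, TCAP, STARD3 and PPP1R1B, and on the other MIEN1, GRB7 and IKZF3. GRB7 encodes an adaptor that binds activated receptor kinases, STARD3 a cholesterol transfer protein and IKZF3 a lymphoid zinc finger factor. Positions of genes on hg19 and the hg19 sequence were not used here, so peaks are given by position with no gene assigned and no sequence printed. Copy number was not measured in these files.

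Each list combined both samples of its group, so no value below has an error between samples, and nothing says whether the samples were separate cultures. Exact (Clopper-Pearson) 95% confidence intervals and Newcombe intervals of differences cover counting error only, and sequencing depth is unknown. Tests were two-sided Fisher's exact tests with a threshold of 0.05, and their p-values, adjusted within each family after Benjamini and Hochberg, are given as adjusted exact p. They compare lists, or regions within a list, by their peaks, which are not replicates. Neighbouring peaks are counted as independent, which they may not be. Strength is given as the percentile of a peak's deposited signal value within its own list, where 100 is the highest.

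The clearest feature of the ERBB2 part lay in the strength of its CEBPB peaks and not in the number of peaks. Many CEBPB peaks there had low signal values, many had high significance in the authors' list, and 21 of 70 had both. The median signal was 2.58 for the 70 peaks of the part and 3.22 for the 1272 peaks of the rest of the arm, with ranges of 1.42 to 16.99 and 1.91 to 30.0. As percentiles, the medians were 12.0 in the part and 52.6 in the rest. By the deposited −log10 p of the same peaks, the order was the opposite, with a median percentile of 85.5 in the part and 50.8 in the rest. As a group, the part thus had a low median by one measure and a high median by the other.

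In the part, 40 of 70 CEBPB peaks (57.1%, 44.8 to 68.9) were in the lowest 25% of the list by signal, against 285 of 1272 (22.4%, 20.1 to 24.8) in the rest of the arm. The difference was 34.7 points (exact p = 1.3e-09, a single test and so not adjusted), in a comparison chosen after the values had been seen. By −log10 p, 49 of 70 (95% interval 57.9 to 80.4%) were in the highest 25%, against 365 of 1272 (28.7%, 26.2 to 31.3). This was a difference of 41.3 points (exact p = 7.5e-12, likewise not adjusted). Both p-values count the neighbouring peaks of a single region as independent, so they describe this list only. For the highest 25% by signal, 18 of 70 (25.7%) stood against 334 of 1272 (26.3%), a difference of -0.54 points (-9.67 to 11.0; adjusted exact p = 1.0). The excess of the part was thus among weak peaks by signal. Above the midpoint of the list by signal were 23 of 70 peaks, against 663 of 1272, a difference of -19.3 points that passed the threshold (adjusted exact p = 0.0059).

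**Figure D1:**
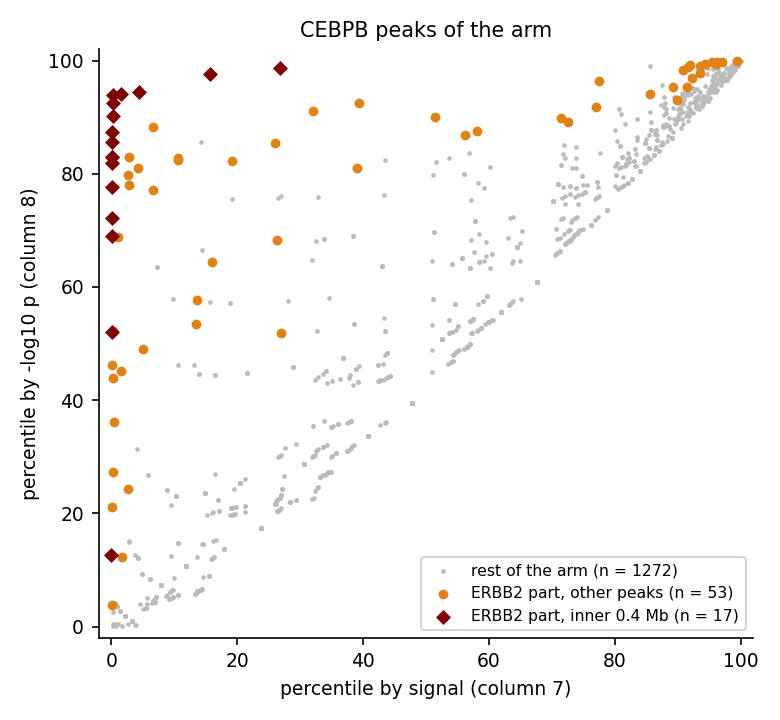
Each point is 1 CEBPB peak of the arm, with the percentile of its signal on the x axis and the percentile of its −log10 p on the y axis, both within the whole CEBPB list. Grey points (1272 peaks of the rest of the arm) mostly lie near the diagonal, whereas 15 of the 17 diamonds, which mark the inner 0.4 Mb of the ERBB2 part, lie at or under percentile 5 by signal, and 13 of the 17 lie above percentile 75 by −log10 p.

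In the rest of the arm both ranks went together, with a Spearman rho of 0.95 across 1272 peaks of the same libraries, compared with 0.72 across the 70 peaks of the part. For KLF5 no p-values were used here. Signal and −log10 q were correlated there with a Spearman rho of 0.93 across 44 Calu-3 peaks and 0.97 across 129 16HBE14o- peaks of the arm.

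The shift was uneven within the part. From 36 to 37 Mb the 19 CEBPB peaks had a median percentile of 58.1 by signal and 87.6 by −log10 p. From 37 to 38 Mb, the medians of 22 peaks were 0.98 and 85.5, and from 38 to 39 Mb those of 29 peaks were 6.56 and 82.9. The ranks were furthest apart between 37 and 39 Mb. Among the 2360 bins of the genome with at least 10 CEBPB peaks, the median gap between both percentiles was the highest in the bin from 37 Mb (74.9) and the fifth highest in the bin from 38 Mb (35.8). The bin from 35 Mb, outside the part, ranked 6 by this gap (33.2), and the bin from 36 Mb ranked 11 (21.6). On either side of the part, the 13 peaks from 35 to 36 Mb had medians of 18.9 and 63.5. The 19 peaks from 39 to 40 Mb had medians of 80.9 and 85.7. High rank by −log10 p therefore extended to 40 Mb, where the signal rank was high as well.

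Of the 20 peaks of the part in the lowest 1% of the list by signal, 13 lay in a window of 0.4 Mb picked out after the values had been seen, whose first and last peaks were chr17:37762006-37762152 and chr17:38083702-38083936. The other 7 lay between that window and 39 Mb, at −log10 p percentiles of 3.8 to 52.3, so none of them was high by that measure. The 17 CEBPB peaks of the window had signals of 1.42 to 2.82 with a median of 1.67, and a median signal percentile of 0.084. Their median −log10 p of 7.76 stood at percentile 85.6, and their median width of 154 bp was close to that of the whole list, 151 bp. All 17 lay at or under percentile 26.9 by signal, and 13 were in the highest 25% by −log10 p.

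Single peaks, also picked after their values had been seen, show the contrast. The peak at chr17:37938835-37939061 had the highest signal of this stretch, 2.82 (percentile 26.9), and a −log10 p of 42.9 (percentile 98.6). At chr17:37831139-37831395 the signal was 2.65 (percentile 15.7) and the −log10 p 32.4 (percentile 97.7). The peak at chr17:37904764-37904952 had a signal of 2.33 (percentile 4.38) with a −log10 p of 17.4 (percentile 94.4). These 3 peaks stood near the top of the list by one measure and in its lower part by the other. At chr17:38024323-38024473 both were low, with a signal of 1.42, the ninth lowest of all 69386 peaks, and a −log10 p of 2.89 (percentile 12.6).

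**Figure D2:**
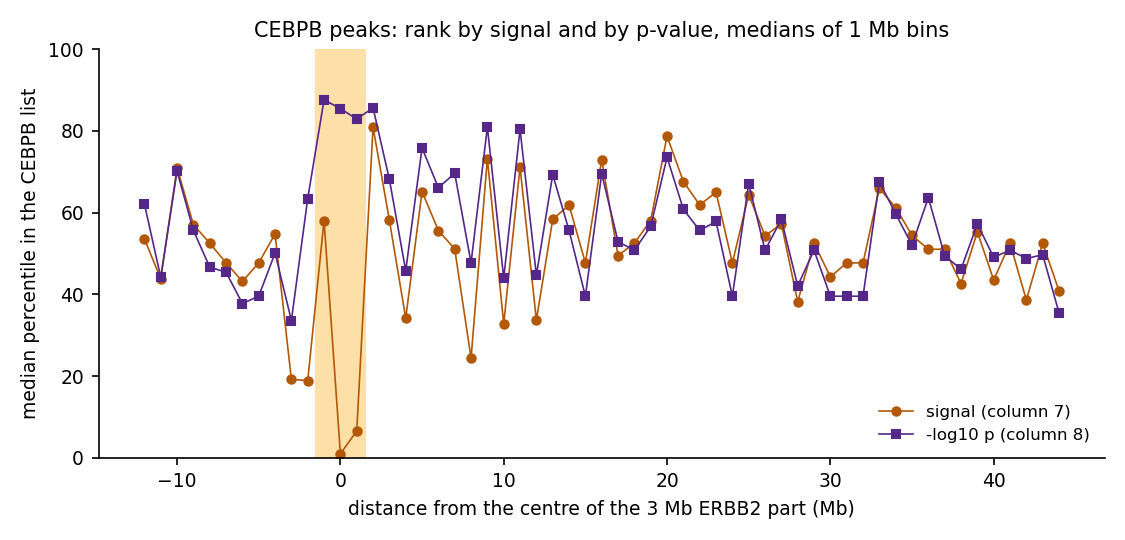
Median percentile of the CEBPB peaks in each 1 Mb bin of the arm (57 bins), by signal (circles) and by −log10 p (squares), against the distance in Mb from the centre of the ERBB2 part, which is shaded. Both lines run together along most of the arm. They part most in the bin at the centre (0.98 by signal, 85.5 by −log10 p) and in the next bin (6.56 and 82.9). They also part, by less, in the bins from 35 Mb (18.9 and 63.5) and from 36 Mb (58.1 and 87.6). Smaller separations occur elsewhere, such as in the bins from 34 Mb (19.2 and 33.6), 44 Mb (51.1 and 69.6) and 45 Mb (24.4 and 47.7), which hold 12, 7 and 8 peaks.

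Over the whole genome, 2845 bins of 1 Mb held a CEBPB peak. An excess of peaks in the lowest 25% by signal was called in 14 of them (0.492% of bins), 2 of these among the 57 bins of the arm, namely those from 37 and from 38 Mb. An excess in the highest 25% by −log10 p was called in 83 bins (2.92%), 5 of these on the arm, which were the bins from 36, 37, 38, 39 and 48 Mb. Only 2 of the 2845 bins (0.0703%) were called by both, and they were the 2 bins of the arm from 37 and from 38 Mb. In the first, 16 of 22 peaks were in the lowest 25% by signal (adjusted exact p = 0.0023) and 17 of 22 in the highest 25% by −log10 p (adjusted exact p = 0.00013). In the second, these were 17 of 29 (adjusted exact p = 0.044) and 20 of 29 (adjusted exact p = 0.00022). The test of the bins was likewise chosen after the values had been seen. With q of 0.05 or less no bin was called by both, and 1 was with bins of 2 Mb or bins shifted by 0.5 Mb.

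Peaks that combined both extremes, in the lowest 25% by signal and the highest 25% by −log10 p, were rare in the list. There were 79 among 69386 CEBPB peaks (0.114%), and 21 of the 79 (26.6%) lay in the ERBB2 part, 3 in the rest of the arm and 55 elsewhere. The bin from 37 Mb held 12 and the bin from 38 Mb held 8, whereas no bin off the arm held more than 4. That number was reached in the bins from 27 Mb on chromosome 19, 133 Mb on chromosome 2 and 58 Mb on chromosome 6. Beyond 150 Mb on chromosome 3, a region with many Calu-3 KLF5 peaks, 2 of 2416 CEBPB peaks were of this kind (0.0828%), and beyond 25 Mb on chromosome 20, where 16HBE14o- KLF5 peaks are many, 3 of 1358 (0.221%). The 3 on chromosome 20 all lay in its bin from 26 Mb. In these 2 regions the median percentiles were 34.6 and 37.4 by signal and 54.1 and 52.6 by −log10 p. Signal ranks were thus lower than significance ranks there too, by a far smaller margin than between 37 and 39 Mb.

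By number, CEBPB peaks were not denser around ERBB2. The part held 23.3 CEBPB peaks per Mb and the rest of the arm 23.9, a ratio of 0.975 (0.755 to 1.24). Calu-3 KLF5 peaks numbered 5 in the part and 39 in the rest, or 1.67 and 0.734 per Mb, a ratio of 2.27 whose interval of 0.699 to 5.77 includes 1. For 16HBE14o- KLF5 the counts were 11 and 118, or 3.67 and 2.22 per Mb, a ratio of 1.65 (0.802 to 3.06). Neither KLF5 list thus had enough peaks to show whether the part was denser.

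As shares of each list's arm peaks, the part held 11.4% for Calu-3 KLF5 (3.79 to 24.6), 8.53% for 16HBE14o- KLF5 (4.33 to 14.8) and 5.22% for CEBPB (4.09 to 6.55). The KLF5 lists differed by 2.84 points (-6.01 to 16.0; adjusted exact p = 0.56). The CEBPB share minus the Calu-3 KLF5 share was -6.15 points (-18.8 to 0.40; adjusted exact p = 0.23), and minus the 16HBE14o- KLF5 share -3.31 points (-9.50 to 0.62; adjusted exact p = 0.23). None of the 3 comparisons passed the threshold. With bounds of 35 to 40 Mb, which take in the bin from 39 Mb with 3 Calu-3 and 7 16HBE14o- KLF5 peaks, the CEBPB share was lower than both KLF5 shares, with differences of -10.6 points against Calu-3 (adjusted exact p = 0.029) and -7.90 points against 16HBE14o- (adjusted exact p = 0.012). Without the bin from 36 Mb, the Calu-3 KLF5 share minus the 16HBE14o- share was -3.10 points and the CEBPB share minus the Calu-3 KLF5 share 1.36 points, so both directions rest on that bin.

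**Figure D3:**
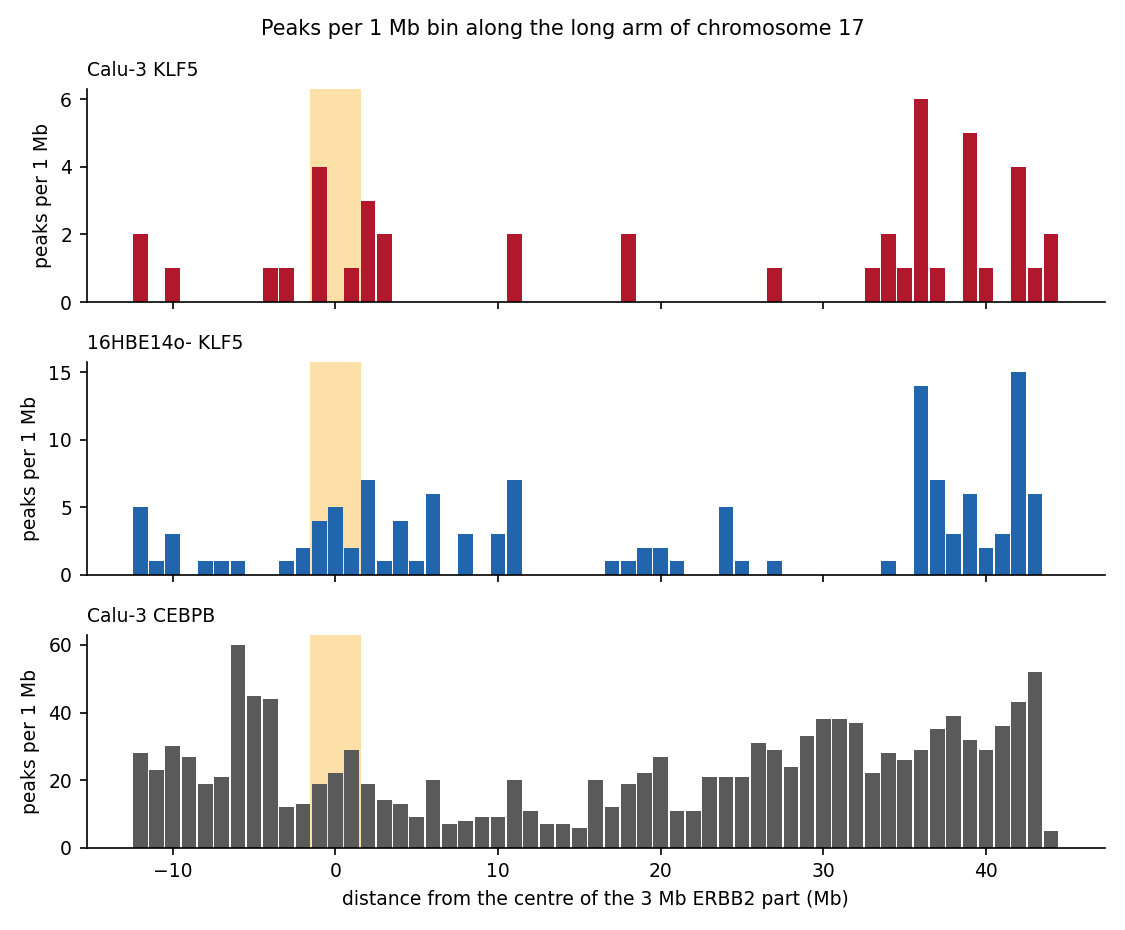
Number of peaks in each of the 57 bins of 1 Mb along the arm, one panel per list with its own y axis, against the distance in Mb from the centre of the ERBB2 part (shaded, 3 bins). KLF5 peaks of both lines gather near the end of the arm, with maxima of 6 and 15 peaks per bin, whereas CEBPB fills every bin with 5 to 60 peaks.

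The 5 Calu-3 KLF5 peaks of the part all lay outside the bin from 37 to 38 Mb, where the list had none. The strongest, chr17:36715658-36715937, had a signal of 54.7 (percentile 95.2) and was the one site of the part where Calu-3 KLF5 met CEBPB. Its CEBPB partner, chr17:36715669-36715995, had a signal of 16.99 (percentile 99.4) and was the strongest CEBPB peak of the part, with 34 bp between the summits. The nearest 16HBE14o- KLF5 summit was 108181 bp away. This site was strong for both factors in Calu-3 and absent from the 16HBE14o- list.

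The other 4 differed widely in rank. A peak at chr17:36607209-36607488 (signal 41.3, percentile 86.2) was the one site of the part found in both KLF5 lists. In 16HBE14o- it appeared as chr17:36607212-36607555 (signal 61.7, percentile 95.9) with a weak entry at chr17:36607445-36607788 (percentile 2.36) beside it, and no CEBPB peak overlapped it. The peak at chr17:38488326-38488605 (percentile 62.7) lay 9861 bp by summit from the nearest 16HBE14o- peak. The remaining pair, at chr17:36581195-36581474 and chr17:36581399-36581678, overlapped each other and were weak, at percentiles 11.5 and 2.85, with q-values of 0.068 and 0.68.

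In 16HBE14o-, the bin from 37 to 38 Mb held 5 KLF5 peaks, in contrast to Calu-3, at signal percentiles of 25.4 to 69.4. The difference between the lists in this bin did not pass the threshold (exact p = 0.33, adjusted p = 0.93 over 1359 bins). Of the 11 peaks of the part in 16HBE14o-, the 5 strongest were chr17:36607212-36607555, chr17:38467883-38468226 (percentile 80.8), chr17:37192339-37192682 (69.4), chr17:37910643-37910986 (68.6) and chr17:37026151-37026494 (66.7). Mid-ranked peaks prevailed, with a median percentile of 66.2 against 56.9 in the rest of the arm. In the top 25% by signal were 2 of 11, against 33 of 118 in the rest (difference -9.78 points, -25.5 to 20.6; adjusted exact p = 1.0), and for Calu-3 KLF5 2 of 5 against 9 of 39 (difference 16.9 points, -15.2 to 55.3; adjusted exact p = 1.0).

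Both 16HBE14o- KLF5 peaks of the part that had a CEBPB peak from Calu-3 lay in the stretch of low CEBPB signal. One, chr17:37886686-37887029 (percentile 56.4), met the CEBPB peak chr17:37886688-37886996, which had a signal of 2.17 (percentile 1.60) but a −log10 p of 16.4 (percentile 94.0). The other, chr17:37910643-37910986, met the CEBPB peaks chr17:37910715-37910955 (signal percentile 0.33, −log10 p percentile 90.2) and chr17:37910523-37910648 (0.040 and 69.0). By signal, these 3 CEBPB peaks were among the weakest of the list. Outside the part, the 21 CEBPB peaks of the arm with a 16HBE14o- KLF5 peak had signal percentiles of 26.9 to 99.8, with a median of 77.4.

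After the peak at chr17:36715669-36715995, the next 4 CEBPB peaks of the part by signal all lay beyond 38 Mb. They were chr17:38278019-38278299 (signal 9.79, percentile 97.0), chr17:38853095-38853406 (96.2), chr17:38509175-38509441 (96.0) and chr17:38705650-38705934 (95.4). None met a KLF5 peak, which was usual for CEBPB. The same held for 66 of the 70 CEBPB peaks of the part (94.3%) and 1306 of the 1342 of the arm (97.3%). Strong and very weak signals thus stood side by side between 38 and 39 Mb, where 10 of 29 peaks were in the top 25% and 14 of 29 in the lowest 5%. In the bin from 37 Mb, 1 of 22 was in the top 25%.

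Along the whole arm, KLF5 was more concentrated than CEBPB. The arm held 2.91% of the Calu-3 KLF5 list (2.13 to 3.89), 3.95% of the 16HBE14o- list (3.31 to 4.68) and 1.93% of the CEBPB list (1.83 to 2.04). CEBPB was lower than both, with a difference of -2.02 points from 16HBE14o- KLF5 (95% interval -2.75 to -1.40; adjusted exact p = 2.4e-12) and of -0.98 points from Calu-3 KLF5 (95% interval -1.96 to -0.24; adjusted exact p = 0.016). The KLF5 lists differed by -1.04 points (-2.07 to 0.11; adjusted exact p = 0.080), which missed the threshold. With all lists limited to their 1510 strongest peaks, the arm held 44 Calu-3 and 70 16HBE14o- KLF5 peaks and this difference passed it (-1.72 points, adjusted exact p = 0.025), while that between CEBPB and Calu-3 KLF5 no longer did (adjusted p = 0.13).

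Peaks were placed very unevenly. Calu-3 KLF5 peaks filled 21 of 57 bins, 16HBE14o- KLF5 peaks 36 and CEBPB peaks all 57. Over the 2850 bins of the genome with a peak of any list, the median count was 0 for both KLF5 lists and 23 for CEBPB. Empty KLF5 bins were thus common in the whole genome. Beyond 71 Mb, in the last 10.1 Mb, lay 23 of the 44 Calu-3 KLF5 peaks (52.3%), 57 of the 129 16HBE14o- peaks (44.2%) and 354 of the 1342 CEBPB peaks (26.4%). From 49 to 71 Mb, over 22 Mb, there were 4 and 14 KLF5 peaks and 468 CEBPB peaks. These stretches were chosen after the counts had been seen and were not tested. Per Mb, the stretch from 49 to 71 Mb held 0.182 Calu-3 KLF5, 0.636 16HBE14o- KLF5 and 21.3 CEBPB peaks. Over the whole arm these densities were 0.784, 2.30 and 23.9. KLF5 was thus sparser there than along the arm in both lines, and CEBPB only slightly so. CEBPB was itself uneven in this stretch, with 11, 7, 7 and 6 peaks in the bins from 49, 50, 51 and 52 Mb.

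The fullest CEBPB bins, from 31, 80 and 32 Mb, held 60, 52 and 45 peaks, with 1, 6 and 0 16HBE14o- KLF5 peaks and 0, 1 and 0 Calu-3 KLF5 peaks. The bin from 79 Mb was full in all lists, with 43 CEBPB, 15 16HBE14o- KLF5 and 4 Calu-3 KLF5 peaks. Between 31 and 34 Mb there were 149 CEBPB peaks, 1 Calu-3 KLF5 peak and 1 16HBE14o- KLF5 peak. Between 65 and 70 Mb, 170 CEBPB peaks stood against no KLF5 peak of either line. The 149 peaks had a median signal percentile of 44.3 and the 170 a median of 47.7, close to the middle of the list. Of the 149, 22 were in the top 25% by signal, and of the 170, 40 were. Outside the ERBB2 part, this held for 334 of 1272 CEBPB peaks of the arm. High signals were thus less frequent between 31 and 34 Mb, a difference that was not tested.

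Across the 57 bins, counts of both KLF5 lists were related, with Pearson r = 0.68 and Spearman rho = 0.43. Without the 3 bins of the part the values were 0.71 and 0.42, and over the 45 bins up to 70 Mb 0.49 and 0.41. For CEBPB they were 0.24 and 0.17 against 16HBE14o- KLF5, and 0.15 and 0.19 against Calu-3 KLF5. Up to 70 Mb they were -0.092 and -0.054 against 16HBE14o- KLF5, and 0.020 and 0.12 against Calu-3 KLF5. Neighbouring bins share chromatin and mappability, so these values are descriptions only.

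The fullest bins of Calu-3 KLF5 were those from 73 Mb with 6 peaks, 76 Mb with 5, and 36 and 79 Mb with 4 each. The fullest of 16HBE14o- KLF5 were those from 79 Mb with 15 peaks and from 73 Mb with 14, followed by those from 39, 48 and 74 Mb with 7 each. No bin of the arm was called different between the KLF5 lists among the 40 that held a peak of either by Fisher's exact test (smallest adjusted p = 0.91), and 0 had an unadjusted p of 0.05 or less, against 9 of 1359 bins called over the genome (0.662%). With at most 6 Calu-3 peaks in a bin, only large differences could have passed.

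Against CEBPB, the share of peaks was higher for 16HBE14o- KLF5 in 5 of 57 bins, compared with 4.25% of 2848 bins over the genome, in a comparison added after the values had been seen. These were the bins from 39, 43, 48, 73 and 79 Mb, and the largest difference was at 79 Mb with 15 of 3262 KLF5 and 43 of 69386 CEBPB peaks (adjusted exact p = 4.0e-06). The bin from 73 Mb was also higher in the Calu-3 KLF5 list than in the CEBPB list (6 of 1510 against 29 of 69386; adjusted exact p = 0.011), the only such bin of the arm, compared with 1.37% of 2847 bins. That call was lost after merging overlapping entries, in the top 50% of each list, with lists of equal length and with q of 0.05 or less. Over the genome, no bin was called higher for CEBPB than for 16HBE14o- KLF5 (0 of 2848) or Calu-3 KLF5 (0 of 2847). The KLF5 lists averaged 1.145 (16HBE14o-) and 0.53 (Calu-3) peaks per bin, so a lack of KLF5 in a bin could hardly pass. No bin of the ERBB2 part was called in any of the 3 comparisons.

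The bin from 73 Mb held several of the strongest KLF5 sites of the arm. At chr17:73840801-73841080, the Calu-3 peak had the highest signal of the arm, 92.0 (percentile 98.9), and the 16HBE14o- peak a signal of 69.98 (percentile 97.5). The site at chr17:73092247-73092526 had percentiles of 97.4 (Calu-3) and 96.4 (16HBE14o-), and the one at chr17:73681142-73681421 had 75.4 and 98.4. None of these 3 sites had a CEBPB peak, the nearest CEBPB summits being 10722, 3404 and 9986 bp away.

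**Figure D4:**
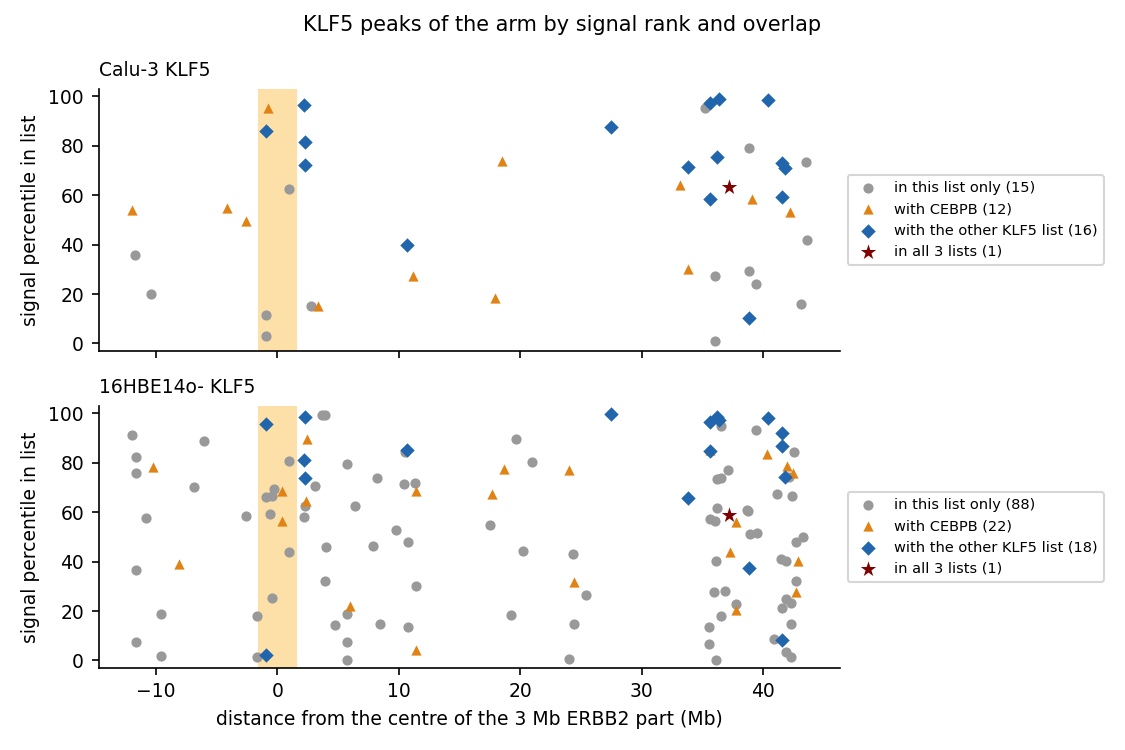
Each point is 1 KLF5 peak of the arm, with its distance in Mb from the centre of the ERBB2 part (shaded) on the x axis and the percentile of its signal within its list on the y axis; the upper panel shows 44 Calu-3 and the lower 129 16HBE14o- peaks. Colours and shapes give the overlap with the other lists, and 1 site (star) was in all 3.

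Sharing was described by overlaps of at least 1 bp. On the arm, 17 of 44 Calu-3 KLF5 peaks overlapped a 16HBE14o- KLF5 peak (38.6%, 24.4 to 54.5), against 339 of 1466 off the arm (23.1%, 21.0 to 25.4). The difference of 15.5 points (2.41 to 30.4) did not pass the threshold after adjustment over 4 tests (adjusted exact p = 0.11). It did so when each list was cut to its top 50% by signal (33.7 points, adjusted exact p = 0.0013). Seen from 16HBE14o-, 19 of 129 peaks were shared on the arm (14.7%, 9.11 to 22.04) and 349 of 3133 off it (11.1%, 10.1 to 12.3; adjusted exact p = 0.24).

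Overlap of KLF5 with CEBPB leaned the other way without passing the threshold. It held for 13 of 44 Calu-3 KLF5 peaks on the arm (29.5%, 16.8 to 45.2) and 647 of 1466 off it (44.1%, 41.6 to 46.7), a difference of -14.6 points (-26.3 to 0.30; adjusted exact p = 0.13). For 16HBE14o- KLF5 it held for 23 of 129 (17.8%, 11.7 to 25.5) and 709 of 3133 (22.6%, 21.2 to 24.1; adjusted exact p = 0.24). Of the 44 Calu-3 KLF5 peaks of the arm, 16 met 16HBE14o- KLF5 only (36.4%), 12 met CEBPB only (27.3%), 15 met neither (34.1%) and 1 met both (2.27%). Off the arm these shares were 13.4%, 34.4%, 42.4% and 9.69% of 1466 peaks, and the differences by class were not tested.

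The 5 highest sites shared by both KLF5 lists without CEBPB, by the mean of both percentiles, were chr17:77889867-77890146 (98.6 in Calu-3, 98.1 in 16HBE14o-), the 2 sites from 73 Mb at 73840801 and 73092247, chr17:64948356-64948635 (87.7 and 99.7) and the site of the ERBB2 part at 36607209. The 16HBE14o- peak at chr17:64948395-64948550, with a signal of 125, was the highest of its list on the arm. It lay in a bin with 1 KLF5 peak from each line. The 16 sites of this class had a median Calu-3 percentile of 74.2, against 53.6 for the 12 with CEBPB only and 27.4 for the 15 found in Calu-3 KLF5 alone.

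Sites of Calu-3 KLF5 with CEBPB were led by the site of the ERBB2 part at 36715658. After it came chr17:55980738-55981017 (73.7 for KLF5, 99.5 for CEBPB), chr17:76588579-76588858 (58.4 and 99.5), chr17:25571993-25572272 (54.2 and 99.96) and chr17:33390656-33390935 (54.8 and 98.3). These sites lead by the mean of both percentiles, which favours high CEBPB. Other sites of the class had lower CEBPB ranks, such as chr17:70657700-70657979 (64.1 for KLF5, 36.8 for CEBPB) and chr17:34900561-34900840 (49.7 and 14.5). The CEBPB peaks at Calu-3 KLF5 sites of the arm had a median percentile of 98.1 over 13 peaks, whereas the 24 at 16HBE14o- KLF5 sites had 73.8 and the 1306 with neither 51.2. The highest CEBPB peak of the arm, chr17:25571964-25572263 (signal 30.0), was the partner of the site at 25571993. The second, chr17:77813510-77813846 (signal 22.2), met a 16HBE14o- KLF5 peak, and the third, chr17:57933034-57933355 (signal 18.6), met none.

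The one site in all 3 lists, chr17:74722730-74723009, was of middle rank for KLF5, at percentiles 63.4 in Calu-3 and 58.7 in 16HBE14o-, and at 90.03 for CEBPB. The highest Calu-3 KLF5 peaks of the arm included 1 that met no other list, chr17:72711329-72711608 (signal 55.0, percentile 95.4), and a shared one at chr17:39678139-39678418 (signal 58.8, percentile 96.4). In 16HBE14o-, 88 of 129 peaks met neither other list (68.2%), as did 2222 of 3133 off the arm (70.9%). The next highest peaks of that list on the arm after the first, chr17:41150123-41150466 (signal 106) and chr17:41400778-41401121 (signal 98.8), were of this kind, with the nearest Calu-3 KLF5 summits 321074 and 571729 bp away. The fourth and the fifth, chr17:73681079-73681422 (signal 78.3) and chr17:39810352-39810695 (signal 78.0), were shared.

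Close groups of 3 or more KLF5 peaks, with gaps of at most 10 kb, were few on the arm. There was 1 in Calu-3, at chr17:76310361-76313949, and there were 5 in 16HBE14o-. The ERBB2 part held 1 of these, at chr17:36605565-36607788, over 2224 bp around the site shared with Calu-3. Another, chr17:39807791-39812262, had 3 peaks at percentiles of 62.7 to 98.3, and 2 of them were shared with Calu-3. As a whole, arm peaks were slightly above the middle of their lists, with median percentiles of 58.5 for Calu-3 KLF5, 57.8 for 16HBE14o- KLF5 and 52.6 for CEBPB, against 49.7, 49.7 and 47.7 for peaks off the arm. On chromosome 3 beyond 150 Mb these medians were 29.1, 35.8 and 34.6, and on chromosome 20 beyond 25 Mb 55.4, 38.9 and 37.4.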

How the data were processed

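The data were 3 ChIP-seq peak lists on hg19, each made from both samples of its group, per the series' design text. The authors deposited peaks of the irreproducible discovery rate procedure, per the file headers. Aligner, peak caller and control library are not given in the sources used here. The deposited signal values, whose normalization is not stated, were used as ranks within a list, and a deposited score served as a filter. The deposited −log10 q-values of all lists and −log10 p-values of the CEBPB list were used as filters or ranks. The KLF5 lists hold no p-values.

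Peaks were placed by midpoint, and bins of 1 Mb were tested over the whole genome. Named peaks were the highest by signal of each list on the arm and in the ERBB2 part, and the highest of each overlap class by mean percentile; the fullest bins and every bin past the threshold were also named. Other peaks were named after their values had been seen. The members and lists were chosen with earlier results of these data known. Analyses used Python 3.11.15, numpy 2.4.6, pandas 2.3.3, scipy 1.17.1 and statsmodels 0.14.6, and the tests were tested on simulated data. Alternatives varied thresholds, list lengths, bounds, bins, merging and the overlap rule. With 1 combined list per group, no test across samples was possible.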

Additional observations from a re-analysis of the deposited data

Results flagged for a closer look

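The results below were picked out because Fisher's exact test called the share of 1 list different from that of another. The arm held a lower share of the CEBPB list than of the 16HBE14o- KLF5 list, by -2.02 points, and than of the Calu-3 KLF5 list, by -0.98 points. In single bins, the CEBPB share minus the 16HBE14o- KLF5 share was -0.187 points from 39 Mb, -0.155 from 43 Mb, -0.186 from 48 Mb, -0.387 from 73 Mb and -0.398 from 79 Mb. Against Calu-3 KLF5 the bin from 73 Mb differed by -0.356 points. The lengths of the lists, 69386, 3262 and 1510 peaks, move with these differences, and their part in the results was not tested beyond the alternatives given next.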

How the results depend on the processing

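Of 143 alternatives over 19 results, 101 kept direction and call or, for counts of called bins, an equal or similar count. An example of a similar count is 4 bins of the arm between CEBPB and 16HBE14o- KLF5 in the top 50% of each list, against 5. No paired analysis was possible because each list combines both samples of its group, and no sample could be left out for the same reason. Ranking KLF5 by p-value was not run, since those lists hold none.

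The share of arm peaks in the ERBB2 part, Calu-3 minus 16HBE14o- KLF5, turned to -0.065 points with lists of 1510 peaks, -2.30 with q of 0.05 or less, -5.87 with KLF5 peaks of the highest score, -3.88 with bounds of 37 to 38 Mb and -3.10 without the bin from 36 Mb. CEBPB minus Calu-3 KLF5 turned to 0.771, 0.216, 1.64 and 1.36 points under the last 4 of these, and was -10.6 with bounds of 35 to 40 Mb. CEBPB minus 16HBE14o- KLF5 passed the threshold at -7.61 points in the top 50% of each list and at -7.90 with bounds of 35 to 40 Mb. KLF5 counts in the part are 5 and 11 peaks, which limits all of these.

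The share of the list on the arm, Calu-3 minus 16HBE14o- KLF5, passed at -1.72 points with lists of 1510 peaks. CEBPB minus Calu-3 KLF5 no longer passed at -0.927 with these lists and at -0.944 with KLF5 peaks of the highest score.

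CEBPB peaks of the part in the highest 25%, minus the rest of the arm, came to 41.3 points by −log10 p or −log10 q, 1.04 with q of 0.05 or less, 4.51 with bounds of 35 to 40 Mb and 9.16 without the bin from 37 Mb. It was -19.3 for the top 50% and -22.05 with bounds of 37 to 38 Mb, both past the threshold. For 16HBE14o- KLF5 it turned to 17.6 for the top 50% and 5.37 without the bin from 37 Mb, and for Calu-3 KLF5 to -23.1 without the bin from 36 Mb. The excess of the part in the lowest 25% of CEBPB kept its call under all 7 alternatives tried. Each of these kept the bin from 37 Mb or the bin from 38 Mb, and merging left the CEBPB peaks unchanged. The comparison had been chosen after the values were seen, so this agreement adds little. From 36 to 37 Mb alone, 7 of 19 peaks were in the lowest 25%.

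Sharing of Calu-3 with 16HBE14o- KLF5 on the arm passed at 33.7 points in the top 50% and 18.8 with lists of 1510 peaks, and seen from 16HBE14o- at 9.19 in the top 50%. Overlap of 16HBE14o- KLF5 with CEBPB turned to 0.775 with q of 0.05 or less.

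Bins of the arm called between CEBPB and Calu-3 KLF5 were 0 in the top 50%, with lists of 1510 peaks, with q of 0.05 or less and after merging. Those between CEBPB and 16HBE14o- KLF5 were 0 with lists of 1510 peaks (2 of 1391 in the genome), 3 with q of 0.05 or less (69 of 2792), 2 with the highest score (42 of 2845) and 8 with bins shifted by 0.5 Mb (100 of 2851). Bins low by signal and high by −log10 p were 1 of 28 with bins of 2 Mb, 1 of 56 with shifted bins and 0 with q of 0.05 or less, where no such bin was called in the genome either. With bins of 2 Mb and with shifted bins, the one on the arm was the only one of the genome. Bins low by signal, whether or not high by −log10 p, were 1 with bins of 2 Mb (22 of 1454 in the genome) and 1 with q of 0.05 or less (61 of 2787).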
